A study of Mus musculus with 6 samples.

Results

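The cells described here are arterial endothelial cells of mouse brain from mosaic claudin-5 knockout libraries, split by whether a cell still held Cldn5 transcripts. Only the 3 Cldn5 iECKO libraries supplied members. A barcode entered with at least 2000 unique molecular identifiers (UMIs, each 1 captured transcript), at most 15% mitochondrial UMIs, at least 3 of the 5 endothelial genes Pecam1, Cdh5, Flt1, Ly6c1 and Esam, and at least 3 of the 6 arterial genes Gkn3, Bmx, Sema3g, Hey1, Efnb2 and Stmn2. It also had at most 2 UMIs over the mural genes Vtn, Rgs5, Acta2 and Tagln and the microglial genes C1qa and Ctss, and 0 UMIs of Plvap, which marks fenestrated endothelium. Of 14175 barcodes in the iECKO libraries and 30586 in the series, 1177 passed: 545, 220 and 412 in iECKO libraries 1, 2 and 3. Cells with 0 Cldn5 UMIs are called lost and numbered 84, 32 and 61 (177 in all). Cells with at least 2 are called kept and numbered 422, 173 and 334 (929 in all). The 39, 15 and 17 cells with exactly 1 Cldn5 UMI entered neither class, and 15, 4 and 6 kept cells lay just inside the limit with exactly 2. Every lost cell was compared with 1 kept cell of its own library with a like total UMI count, so 177 of the 929 kept cells entered that comparison.

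The series holds 3 control and 3 Cldn5 iECKO libraries of brain microvessel cells (10x Genomics droplet RNA-seq). Control mice were C57Bl6 Cldn5 fl/fl, R26 YFP/YFP, and iECKO mice carried the same alleles plus Cdh5-creERT2+, a Cre recombinase driven by an endothelial promoter and switched on by tamoxifen. Both groups, at about 3 months of age, received 100 µl of tamoxifen at 20 mg/ml by gavage on 3 days, so the floxed alleles, the reporter and the drug are common to controls and knockouts. Whether each library came from 1 mouse or from a pool is not given, so the p-values below measure the spread between these libraries. The YFP feature had 0 UMIs in all 6 libraries, and Cldn5 RNA is therefore the only marker of loss. Which part of Cldn5 is floxed is not given, so a recombined cell may still yield Cldn5 UMIs and count as kept, and the lost share is a share of cells without Cldn5 UMIs, not of recombined cells. Libraries held 2714 to 7420 barcodes and 15727366 to 49350802 UMIs. Between 0 and 16 barcode sequences were shared by any 2 libraries, with at most 1 arterial cell among them.

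Claudin-5 is the main sealing strand protein of endothelial tight junctions in the brain, where it limits the passage of small molecules between cells. Arterial endothelial cells sit upstream of the capillary bed. They are specified by Notch signalling, and they differ from capillary cells in their matrix, vasoactive peptides and transporter content. Because Cre acts in only some cells of a mosaic, cells with and without claudin-5 can lie in one vessel. The split within a library compares cells of the same preparation, and which vessel each cell came from is not known.

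Cldn5 RNA chose the classes, so its values are a description. No Cldn5 UMI was seen in 15.4% of arterial cells of iECKO library 1 (95% Clopper-Pearson interval 12.5 to 18.7%), 14.5% of library 2 (10.2 to 19.9%) and 14.8% of library 3 (11.5 to 18.6%), or 14.9% ± 0.445 (SD, n = 3). In the control libraries the same share was 0.182%, 0% and 0%, that is 1 cell of 1659. The intervals cover counting error only. Kept cells held 2160, 2047 and 2854 Cldn5 counts per 1000000 UMIs (CPM), against 4391, 4105 and 5203 in control arterial cells, so the kept class was below all 3 controls. Since kept was defined by 2 or more UMIs, it can include cells with partial loss.

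The zero class depended on depth. In iECKO library 1 its share was 37.1% among cells with 2000 to 4000 UMIs, 18.2% from 4000 to 8000, 6.99% from 8000 to 16000 and 1.33% above that. Library 2 went from 27.5% to 5.26% over the same bins with 19 cells in the deepest, and library 3 from 20.7% through 24.8% to 1.92%. Lost cells had median totals of 4272.5, 4934 and 5690 UMIs, and kept cells 8599, 8406 and 11000. After matching, the kept medians were 4239.5, 4957 and 5635. With every cell thinned to 2000 UMIs the zero share was 24.5% ± 2.73 in iECKO and 0.889% in control libraries (n = 3 each). In droplet data some transcripts come from free RNA. Microglia, which should lack Cldn5, had no Cldn5 UMI in 63.1 to 91.4% of cells over the 6 libraries. At least 2, the limit for kept, were found in 0.714, 10.8 and 2.94% of control and 3.15, 0 and 0% of iECKO microglia. A few Cldn5 UMIs in a cell thus do not by themselves show expression.

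**Figure D1:**
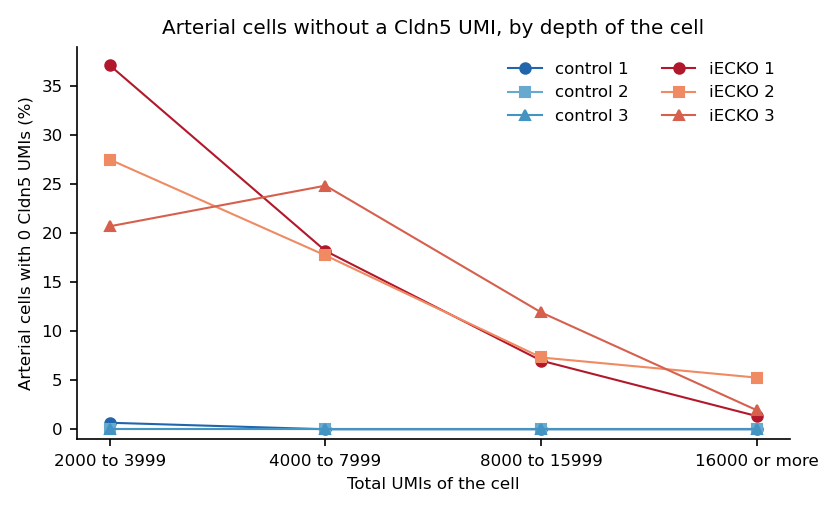
Share of arterial cells with 0 Cldn5 UMIs (percent, y axis) by total UMIs per cell (x axis, bins), 1 line per library. The iECKO libraries lie at 20.7 to 37.1% in the shallowest bin and at 1.33 to 5.26% in the deepest, with library 3 highest in its second bin, while control libraries are at or below 0.667% in every bin.

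Both classes were arterial by genes that the gate did not use. Of 16 tested genes of arterial identity and Notch signalling, 13 were higher in arterial cells than in the other endothelial cells of the same class in 3 of 3 libraries, both for lost and for kept cells. They included Gja4 (connexin 37), Sox17, Jag2 and Unc5b in each class, though Gja4 stood at only 5.8 CPM in lost arterial cells of library 2. Nrp1 was lower in 3 of 3 libraries in both classes, and Hes1 in kept cells. Of 10 capillary genes, 7 were lower in the lost and 8 in the kept arterial cells in every library, among them Slc16a1 and Tfrc. Spock2 was higher in both arterial classes, and Cxcl12, which is on both lists, in the kept class. The share of all genes with 1 direction in 3 of 3 libraries was not computed, so these counts have no background beside them. Among the 6 arterial gate genes Gkn3 differed most from controls: it held 805, 694 and 537 CPM in control, 154, 199 and 325 in kept and 115, 137 and 378 in lost cells. Gate genes helped to choose the members, so these values are a description. Whether the gate admits different cells in iECKO and control libraries, which bears on the comparisons with control below, was not tested. Scrublet, a doublet caller, put 1, 0 and 1 lost cells and 30, 4 and 28 kept cells among the highest scores.

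Within the iECKO libraries, arterial cells without Cldn5 had more transcript of the membrane chemokine Cx3cl1, of the interferon-inducible genes Rsad2, Ifi27l2a and Gbp4, of the death ligand Tnfsf10 and of the metalloproteinase gene Mmp15 than depth-matched cells with Cldn5. They had less of the vasoconstrictor gene Edn1, of Jun and of Eln. The Eln call is weak: it did not pass in 11 of 15 other settings, and 1 kept cell of library 2 held 47 of 54 Eln UMIs. Eln and Jun were also lower in control arterial cells with low Cldn5. Sums of the matched cells were compared with edgeR's quasi-likelihood test with the library as a block and Benjamini-Hochberg adjustment: of 6030 genes tested, 12 were higher (0.199%) and 4 lower (0.0663%) at an adjusted p under 0.05, and 338 had an unadjusted p under 0.05 (5.61%). The 4 haemoglobin genes are among the 12. The calls rest on few libraries and few cells: DESeq2 called 4 genes, all haemoglobin, an edgeR fit without the library block called 0, and without iECKO library 3 edgeR called the 4 haemoglobin genes and Igfbp4. Without library 2 it called 18 genes higher and 8 lower, and without library 1, 8 higher and 6 lower. Levels below are CPM in the matched sums, in library order, unless said otherwise.

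Cx3cl1 encodes fractalkine, a chemokine held on the endothelial surface that binds the leukocyte and microglial receptor CX3CR1. It stood at 515, 394 and 230 CPM in lost cells and at 263, 175 and 168 in the kept cells beside them. Lost cells were higher in each of the 3 libraries, with the smallest gap in library 3, and the log2 difference was 0.84 ± 0.15 (SE, n = 3 libraries; edgeR adjusted p = 1.03e-05). A Cx3cl1 UMI was found in 113 of 177 lost and 94 of 177 kept cells, and the highest single lost cell held 31. The difference was 0.57 to 1.03 over the 16 other settings. It did not pass in 6 of them, among them DESeq2 and the fit without library 1 (0.74, adjusted p = 0.214).

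The interferon-inducible genes that passed were carried by fewer cells. Rsad2 (viperin, an antiviral enzyme) was at 265, 217 and 176 CPM in lost and 60.3, 128 and 153 in kept cells, a log2 difference of 1.00 ± 0.19 (edgeR adjusted p = 0.000351). One lost cell of library 1 held 78 of that library's 121 Rsad2 UMIs, and without library 1 the difference was 0.41 and did not pass. Ifi27l2a was at 215, 17.6 and 62.3 against 71.1, 11.7 and 19.6 CPM, a difference of 1.56 ± 0.27 (adjusted p = 9.25e-06), from 20 lost and 18 kept cells with a UMI. Library 2 held only 3 Ifi27l2a UMIs in 1 lost cell and 2 UMIs in 2 kept cells. The 3 highest lost cells held 64% of 98 UMIs in library 1 and 72% of 29 in library 3. Gbp4, a guanylate-binding protein gene, was at 121, 229 and 144 against 45.2, 122 and 103 CPM (0.87 ± 0.21, adjusted p = 0.0122) and was found in 71 lost and 59 kept cells. Gbp4 did not pass in 10 of the 16 other settings, among them leaving out any 1 library, 4000 UMIs, 4 arterial genes and 0 against at least 5 Cldn5 UMIs.

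Of 22 tested genes in a list of 23 interferon-induced genes, 2 rose (Rsad2 and Ifi27l2a), none fell and 18 lay above 0. The list's median log2 difference was 0.22, against -0.003 over all genes tested, of which 49.6% lay above 0. With classes set at 2000 UMIs per cell that median was 0.09, with 18 of 22 above 0. Isg15 (0.48, adjusted p = 0.279) and Stat2 (0.72, adjusted p = 0.655) did not pass in edgeR. Isg15 stood at 324, 159 and 320 CPM in lost and 177, 210 and 236 in kept cells, so library 2 went the other way. Among 12 tested genes of MHC class I presentation 0 passed and 9 lay above 0, with a median of 0.19 (0.11 with classes set at 2000 UMIs). B2m, its shared light chain, was at 2059, 1557 and 1817 against 1635, 1259 and 1472 CPM, higher in 3 of 3 libraries without passing (0.31 ± 0.11, adjusted p = 0.348).

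Tnfsf10 (TRAIL), a ligand that can trigger apoptosis, is also inducible by interferon. It was at 110, 259 and 262 CPM in lost and 51.7, 152 and 179 in kept cells (0.73 ± 0.19, edgeR adjusted p = 0.0339), and 94 lost against 68 kept cells held a UMI. Lost cells were higher in each library, and the difference was 0.63 to 0.92 over the 16 other settings. Tnfsf10 did not pass in 9 of them, among them DESeq2, leaving out any 1 library, thinning, 4000 UMIs and 4 arterial genes. Leaving out cells with red-cell RNA also ended the call, at 0.68 (edgeR adjusted p = 0.083).

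The promoters of these genes are shown because interferon-stimulated genes often carry an interferon-stimulated response element near their start. The 250 bases before the annotated start were read from RefSeq on GRCm38.p6, and its core (TTTC, any 2 bases, TTTC) was searched on both strands. Capitals mark a match. The Rsad2 match covers bases 120 to 111 before the start, the Edn1 match bases 78 to 69, and Cx3cl1 holds no match in this window.
Rsad2, chr12:26456453-26456702, minus strand: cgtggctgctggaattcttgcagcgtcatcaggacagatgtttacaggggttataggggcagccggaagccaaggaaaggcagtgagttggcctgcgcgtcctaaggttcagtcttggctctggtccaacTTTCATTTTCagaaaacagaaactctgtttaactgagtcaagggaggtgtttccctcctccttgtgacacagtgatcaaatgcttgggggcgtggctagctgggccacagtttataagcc
Edn1, chr13:42301226-42301475, plus strand: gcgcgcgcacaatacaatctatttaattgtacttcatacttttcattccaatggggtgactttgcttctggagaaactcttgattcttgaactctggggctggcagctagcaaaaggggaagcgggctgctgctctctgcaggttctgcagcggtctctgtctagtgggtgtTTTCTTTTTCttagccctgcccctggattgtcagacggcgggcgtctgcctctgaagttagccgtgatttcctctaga
Cx3cl1, chr8:94771930-94772179, plus strand: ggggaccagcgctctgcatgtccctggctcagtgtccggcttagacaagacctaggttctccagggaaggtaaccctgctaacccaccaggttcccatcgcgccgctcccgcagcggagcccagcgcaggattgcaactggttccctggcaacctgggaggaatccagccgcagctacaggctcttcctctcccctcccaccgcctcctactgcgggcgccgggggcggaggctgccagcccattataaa

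Over all 27025 genes with a promoter entry, 3.46% held this core, and so did 9 of the 19 listed interferon-induced genes with an entry. Among the 12 called genes that are not haemoglobin genes, 8 had an entry and 2 of those held it, Rsad2 and Edn1. Rsad2 was higher and Edn1 lower in lost cells, so the letters did not go with 1 direction. The NF-kappaB consensus, searched by the same window and strands, was in 5.67% of all promoters and in 0 of those 8. A match is a run of letters, not evidence that a factor binds there.

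Mmp15, S100a6 and Stc1 were also higher in lost cells. Mmp15, a membrane-anchored matrix metalloproteinase gene, was at 37.3, 47.0 and 70.9 CPM against 19.4, 17.5 and 10.9 in kept cells (1.73 ± 0.39, edgeR adjusted p = 0.00624). It was spread over many cells, with a UMI in 42 of 177 lost and 14 of 177 kept cells and never more than 3 in a cell, but without matching on total UMIs the difference was 0.62 (adjusted p = 0.337). S100a6, a small calcium-binding protein gene, was at 265, 159 and 101 against 196, 29.1 and 26.2 (0.99 ± 0.20, edgeR adjusted p = 0.000946), and without matching it was -0.13. It came from 33 lost and 27 kept cells with a UMI. The 3 highest lost cells held 68% of 121 UMIs in library 1, 78% of 27 in library 2 and 51% of 47 in library 3. Kept cells held 5 UMIs in 4 cells of library 2 and 12 UMIs in 2 cells of library 3. Stc1, the secreted glycoprotein stanniocalcin-1, passed with 281, 99.9 and 32.2 against 99.1, 128 and 13.1 (1.05 ± 0.23, adjusted p = 0.00248). Library 2 went the other way, so Stc1 falls outside the naming rule and was chosen after its values were seen.

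The haemoglobin genes Hba-a1, Hba-a2, Hbb-bs and Hbb-bt were 6.60 to 7.81 higher on the log2 scale, and they measure red-cell RNA in 4 barcodes. In 2, 1 and 1 lost cells of the 3 libraries haemoglobin exceeded 1% of UMIs, reaching 32.8%, and no matched kept cell did so. The full kept class held 7, 2 and 11 such cells. With all of them left out before matching, 7 genes were higher (Cx3cl1 0.83, Rsad2 0.98, Ifi27l2a 1.64, Gbp4 0.92, Mmp15 1.67, S100a6 0.94 and Stc1 1.19) and 4 lower (Ccn1, Jun, Tmsb10 and Edn1), or 0.118% and 0.0675% of 5930 tested. In the matched sums, microglial markers summed to 67 to 78 CPM in lost and 37 to 65 in kept cells. Genes listed for astrocytes summed to 1554 to 1890 against 2282 to 2479, with Gfap and Agt at 0 in all 6 sums. Most of that sum was Apoe, with a UMI in 149 of 177 lost and 154 of 177 kept cells, and Cst3, in 157 and 166. Because these genes were found in so many of the cells, the sum is not read here as a measure of astrocyte RNA. How much of their UMIs came from the cells themselves and how much from free RNA was not tested. The part of the microglial and astrocyte-list differences in the gene results was not tested beyond leaving out the red-cell barcodes.

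Edn1, endothelin-1, is a vasoconstrictor peptide gene of arterial endothelium. It was at 243, 247 and 438 CPM in lost and 448, 431 and 532 in kept cells, lower in 3 of 3 libraries, as were 11.9% of all genes (-0.60 ± 0.13, edgeR adjusted p = 0.00248), and a UMI was found in 80 lost and 108 kept cells. Jun, an immediate early transcription factor gene that also answers to tissue dissociation, was at 697, 993 and 831 against 827, 1311 and 1365 (-0.47 ± 0.11, adjusted p = 0.0118). Neither passed without library 1, at -0.45 for Edn1 and -0.57 for Jun. Of 19 tested immediate early and stress genes Jun alone passed, 15 lay below 0 and the median was -0.11 (-0.23 with classes set at 2000 UMIs). Fos (-0.47, adjusted p = 0.0572) and, outside that list, Ccn1 (-0.78, adjusted p = 0.0572), a matricellular gene driven by flow and YAP, were just outside the threshold.

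Tmsb10, an actin-sequestering thymosin gene, was at 235, 135 and 144 CPM against 338, 134 and 288 in kept cells (-0.64 ± 0.16, edgeR adjusted p = 0.0287). Library 2 showed no gap, and with every cell thinned to 2000 UMIs the difference was 0.09. Eln, the elastin gene of larger arteries, was at 50.4, 76.4 and 70.9 against 86.2, 315 and 80.7 (-0.92 ± 0.23, adjusted p = 0.0211). In library 2, 1 kept cell held 47 of the 54 Eln UMIs, and with the red-cell barcodes left out, which also changed the matched kept cells, the difference was -0.27. The 12 tested genes of large-artery matrix had a median of -0.46, with 10 below 0 and Eln alone past the threshold. That median was -0.06 without the red-cell barcodes and -1.02 with classes set at 2000 UMIs. As a sum, the 14 listed genes were lower in lost cells in library 2 alone, at 2971 against 8329 CPM. They summed to 5075 against 5020 in library 1 and 4764 against 4053 in library 3. Single kept cells of library 2 held 67 of its 78 Fbln5 UMIs and 83 of its 100 Clu UMIs.

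Matching does not change how a cell was classed, so the classes were also set after thinning every cell to 2000 UMIs, which moved deeper cells into the lost class (143, 57 and 88 cells). This was chosen after seeing the data. A cell with 0 Cldn5 UMIs stays at 0 after thinning, so the 177 lost cells of the first comparison were classed lost here too. Calls shared by both settings are therefore not independent. Of 7820 genes then tested, 13 were higher (0.166%) and 5 lower (0.0639%), and 8 of these 18 were among the 16 of the first comparison: Cx3cl1 (0.77), Rsad2 (0.97), Ifi27l2a (1.12), Tnfsf10 (0.87), Mmp15 (1.02), S100a6 (0.57), Stc1 (0.81) and Jun (-0.51). Edn1 did not pass (-0.48 ± 0.33, edgeR adjusted p = 0.918) and had 567 UMIs in lost and 519 in kept cells of library 1, which went the other way from libraries 2 and 3. Gbp4 did not pass either (0.50 ± 0.15, adjusted p = 0.328). Genes called here and not in the first comparison included Enpp2 (0.79), the transcription factor gene Ets2 (0.63) and the retinol transporter gene Stra6 (0.57) among the higher, and the matrix proteoglycan gene Bgn (-2.74), the protease gene Htra1 (-1.06) and Id2 (-0.88), an inhibitor of helix-loop-helix factors, among the lower. Fabp4, a fatty acid carrier gene, had 49, 8 and 16 UMIs in lost and 11, 0 and 0 in kept cells.

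**Figure D2:**
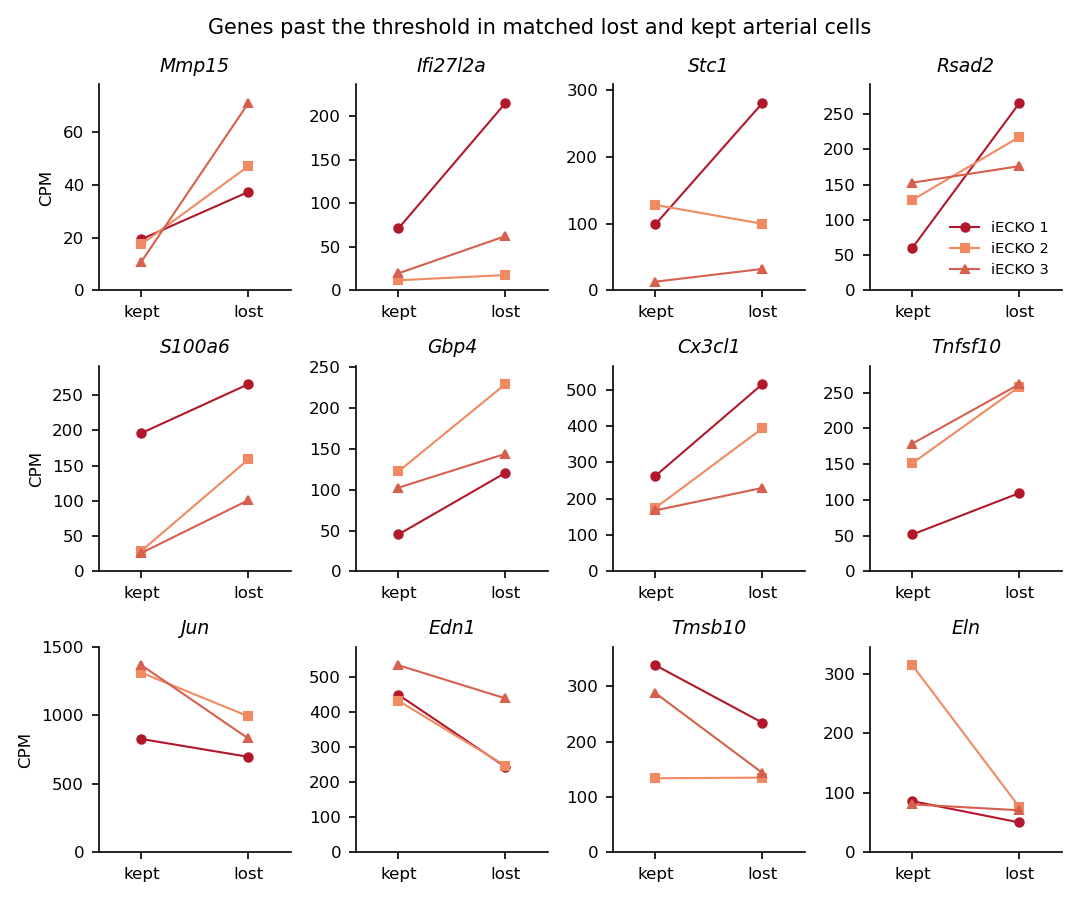
CPM (y axis) in depth-matched kept and lost arterial cells for the 12 called genes that are not haemoglobin genes, 1 line per iECKO library (circle, square and triangle for libraries 1, 2 and 3). Cx3cl1, Gbp4, Tnfsf10, Mmp15, S100a6, Rsad2 and Ifi27l2a rise in 3 of 3 libraries, Stc1 falls in library 2, and the steepest Eln line is that of library 2. The library 2 line of Ifi27l2a rests on 3 UMIs in lost and 2 in kept cells.

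Of the other junction and barrier genes listed, none passed between the classes. Over all genes tested, 0.199% were called higher and 0.0663% lower, so lists this short would hold few or no calls at that share. The 0 counts are therefore not a result about these genes. Of 13 tested tight junction genes besides Cldn5, 0 passed, 5 lay above 0 and the median was -0.04. Ocln (occludin) was at 169, 247 and 230 CPM in lost and 181, 286 and 212 in kept cells (-0.04 ± 0.16), and the scaffold gene Tjp1 (ZO-1) at 410, 658 and 597 against 448, 664 and 587 (-0.04 ± 0.12). These errors leave room for small differences. Jam2 differed by 0.15 ± 0.13 and the tricellular gene Lsr by -0.14 ± 0.14. Of 12 adherens junction genes 0 passed. Cdh13 (T-cadherin) came nearest, at 147, 194 and 103 against 127, 46.6 and 54.5 (0.74 ± 0.21, edgeR adjusted p = 0.108). Of 16 tested transporter genes of the blood-brain barrier 0 passed, with Slc2a1, the glucose transporter GLUT1, at 0.10 ± 0.10 and the efflux pump gene Abcb1a at -0.07 ± 0.11.

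Genes of leukocyte adhesion and NF-kappaB signalling leaned upward around Cx3cl1. Of 16 tested of 26 listed, Cx3cl1 alone passed, 14 lay above 0 and the median was 0.37 (0.16 over 19 tested with classes set at 2000 UMIs). The feedback inhibitor gene Nfkbia was at 962, 817 and 1076 CPM in lost and 722, 647 and 920 in kept cells (0.32 ± 0.11, edgeR adjusted p = 0.381), higher in 3 of 3 libraries, as were 13.4% of all genes. Birc3 (1.28, adjusted p = 0.122), Icam1 (0.39) and Vcam1 (0.43) did not pass, and for each of these 3 library 2 went the other way. Vcam1 was at 381, 153 and 470 against 144, 466 and 316. All 10 capillary genes lay below 0 with 0 passing and a median of -0.22, and Mfsd2a, a lipid transporter that restrains transcytosis, was at -0.22 ± 0.16. Of 17 Wnt/beta-catenin genes 0 passed, with a median of 0.02. Of 16 arterial and Notch genes Edn1 alone passed. The Notch ligand genes Dll4 (-0.32) and Jag1 (-0.52, adjusted p = 0.605) did not pass.

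**Figure D3:**
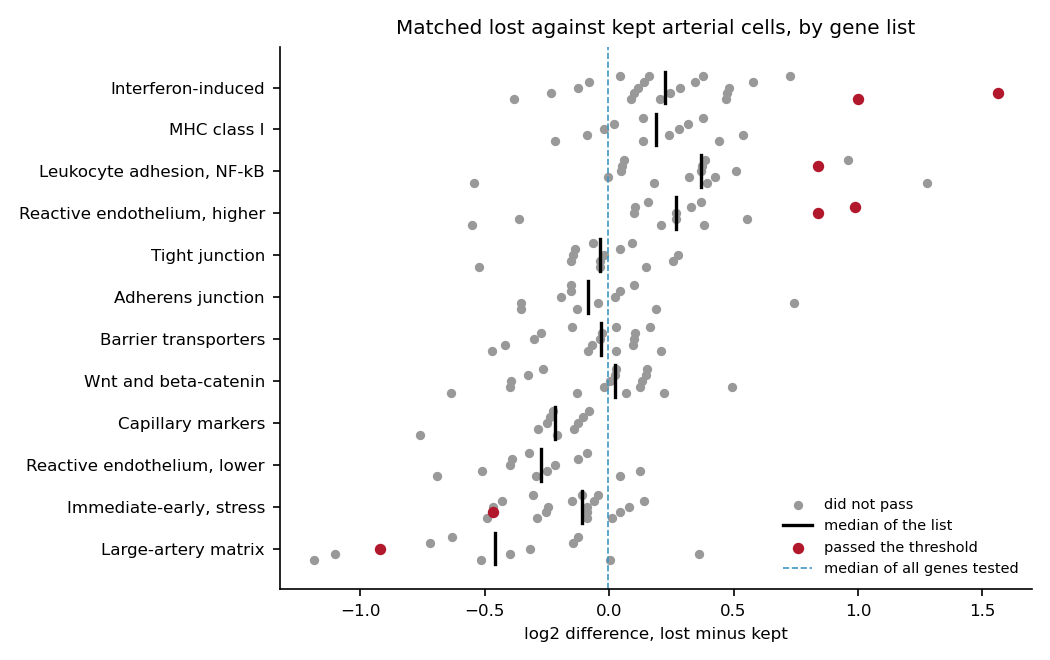
Log2 difference between depth-matched lost and kept arterial cells (x axis) for the tested genes of 12 gene lists (rows), 1 point per gene with the list's median marked. Leukocyte adhesion and NF-kappaB genes (median 0.37) and interferon-induced genes (0.22) lie mostly right of 0, and large-artery matrix genes (-0.46) mostly left. As a sum, the large-artery list was lower in lost cells in library 2 alone.

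Control libraries served as background for the Cldn5 level itself. Control arterial cells in the lowest 25% of Cldn5 per UMI (1881, 1849 and 2647 CPM) were matched on depth to cells above it (5009, 4811 and 5858). Of 7977 genes tested, 360 were higher (4.51%) and 818 lower (10.3%) in the low cells. Eln fell there by 0.78 and Jun by 0.48 on the log2 scale, close to the values in the mosaic comparison (edgeR adjusted p = 0.000576 and 0.00459). Ifi27l2a fell by 1.15, opposite to its rise in lost cells. Cx3cl1 (-0.03 ± 0.15), Rsad2 (0.07), Gbp4 (0.05), Mmp15 (-0.07), S100a6 (0.07), Edn1 (-0.05) and Tmsb10 (-0.07) did not pass. Interferon-induced genes had 7 of 22 lower, 0 higher and a median of -0.24, the other sign from the mosaic. With 1 control library left out these counts were 63 to 247 higher and 296 to 425 lower.

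**Figure D4:**
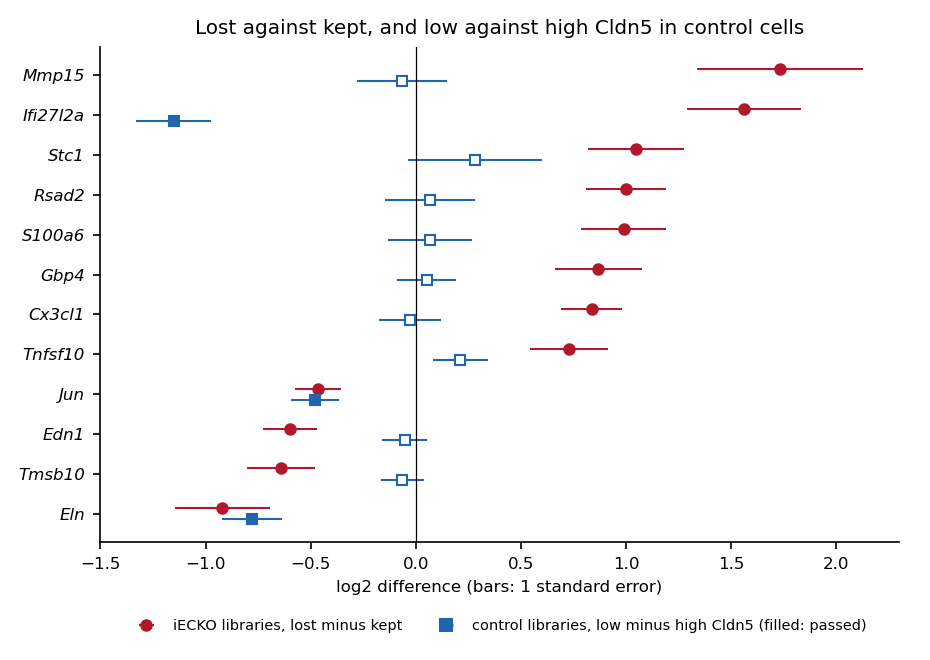
Log2 differences (x axis, bars 1 SE) of the 12 called genes that are not haemoglobin genes: lost minus kept cells in iECKO libraries (circles) and low minus high Cldn5 cells in control libraries (squares, filled where past the threshold). Eln and Jun lie left of 0 in both, Ifi27l2a lies on opposite sides, and the control values of Cx3cl1, Rsad2, Edn1 and Tmsb10 lie near 0.

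The same split was made in the other endothelial cells of the iECKO libraries (at most 1 arterial gene detected), with 485, 138 and 254 matched pairs. Of 8641 genes tested there, 53 were higher (0.613%) and 36 lower (0.417%). Cx3cl1 was at 330, 210 and 168 CPM in lost and 172, 134 and 79.3 in kept cells (0.93 ± 0.09, edgeR adjusted p = 3.32e-06), and Rsad2 (0.90) and Ifi27l2a (1.16) rose too. Mmp15 (0.07), S100a6 (-0.11) and Gbp4 (0.11) did not pass there. Edn1 stood at 110, 201 and 118 against 63.1, 63.4 and 104, in the direction opposite to arterial cells (0.71, adjusted p = 0.0781). Cdh13 passed there at 0.95 (adjusted p = 0.0086). Of the interferon-induced list 7 of 23 rose, against 2 of 22 in arterial cells with fewer cells.

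The difference between the 2 cell classes was tested as an interaction. Of 7475 genes, 0 passed in edgeR (0.0%) and 359 had an unadjusted p under 0.05 (4.80%). Edn1 had an interaction of -1.31 ± 0.30 (adjusted p = 0.751), Mmp15 of 1.69 ± 0.42 (0.346), S100a6 of 1.02 ± 0.32 (0.751) and Gbp4 of 0.75 ± 0.24 (0.751). Cx3cl1 had -0.08 ± 0.17. No gene can thus be called particular to arterial cells from the interaction fitted with all 3 libraries. Edn1 passed it without library 2, without library 3 and with no filter on low counts.

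Kept and lost arterial cells were each set against control arterial cells with at least 2 Cldn5 UMIs. Both use the same controls, so their values stand side by side only. In kept cells, edgeR without a replicate block called 2 of 10980 genes, both higher (0.0182%): Slc12a2, the ion cotransporter NKCC1, and the homeobox gene Meox1. None was lower (0.0%), 543 had an unadjusted p under 0.05 (4.95%), and DESeq2 called 35 higher and 2 lower. With the replicate number as a block, 191 were higher (1.74%) and 100 lower (0.911%). In lost cells, 15 of 10134 genes were higher (0.148%) and 6 lower (0.0592%) without the block, and 87 higher (0.858%) and 48 lower (0.474%) with it. Lost cells were shallower than controls: matched on depth and with the block, 36 and 17 genes passed in lost cells, and 170 and 90 in kept cells. Single libraries moved the counts without the block: for kept cells they were 19 higher and 3 lower without iECKO library 3, 0 without iECKO library 1 or control library 1, and 1 higher without control library 3. For lost cells they were 50 and 6 without iECKO library 3, 3 and 0 without iECKO library 1, 5 and 0 without iECKO library 2, 9 and 8 without control library 3 and 11 and 3 without control library 2. Levels in these comparisons are over all cells of a class and were normalised apart from the matched sums.

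Cx3cl1 was at 98.4, 116 and 89.0 CPM in control, 282, 208 and 173 in kept and 528, 388 and 228 in lost cells. Neither iECKO class overlapped the controls, and in that direction 5.05% of all genes did not overlap in kept and 6.65% in lost cells. Kept cells exceeded control by 1.14 ± 0.21 (edgeR adjusted p = 0.135; 1.12 ± 0.13 with the replicate block, adjusted p = 7.36e-06) and lost cells by 1.93 ± 0.26 (adjusted p = 0.00487; matched on depth 1.92, adjusted p = 0.0169; without iECKO library 2, adjusted p = 0.0695). Slc12a2 was at 24.8, 26.6 and 24.8 in control, 84.2, 74.3 and 61.8 in kept and 89.9, 63.6 and 78.7 in lost cells, with differences of 1.54 ± 0.17 (adjusted p = 0.0102) and 1.67 ± 0.22 (0.00359). Matched on depth the lost difference was 1.57 (adjusted p = 0.0872; with the block 1.59, adjusted p = 0.0326), and it did not pass without iECKO library 1. The kept difference did not pass after thinning or without control library 1, control library 3 or iECKO library 1. The Meox1 call in kept cells ended without control library 1, iECKO library 1 or iECKO library 2. Its iECKO classes overlapped each other and stood clear of control. Enpp2, the gene of the lysophosphatidic acid enzyme autotaxin, was at 62.5, 78.1 and 78.8 in control, 157, 178 and 354 in kept and 265, 168 and 213 in lost cells. Ccnd1, cyclin D1, was at 193, 104 and 128, then 370, 328 and 289, then 414, 272 and 247.

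Rsad2 showed another order. It was at 91.0, 139 and 122 CPM in control, 83.0, 119 and 148 in kept and 272, 214 and 175 in lost cells. Kept cells overlapped control (-0.003 ± 0.22), and lost cells lay above all controls (0.93 ± 0.23, edgeR adjusted p = 0.144; with the replicate block 0.96 ± 0.19, adjusted p = 0.00314; matched on depth with the block 0.74, adjusted p = 0.241). Icam1, an adhesion molecule gene for leukocytes, was at 34.2, 42.3 and 19.1 in control, 68.7, 66.6 and 65.9 in kept and 71.9, 23.1 and 66.0 in lost cells. Kept cells exceeded control there by 1.17 ± 0.19 with the block (adjusted p = 0.00501; 0.254 without it), and lost cells did not pass, library 2 being within the controls. The heat shock gene Hspa1a was at 492, 400 and 231 in control, 249, 274 and 243 in kept and 137, 156 and 132 in lost cells, and it passed in lost cells (-1.40 ± 0.27, adjusted p = 0.0377). That call ended with RLE factors (adjusted p = 0.0503), after thinning and without control library 1, control library 2 or any single iECKO library, and held when matched on depth (-1.46, adjusted p = 0.0089). The venous list members Slc38a5, an amino acid transporter gene, and Nr2f2, a venous transcription factor gene, were among the 6 lower genes of the lost cells. Slc38a5 had 4, 2 and 4 UMIs in lost cells, and the matched kept cells were about as low, with 3, 3 and 8. Its difference from control was -2.86 ± 0.36 with the replicate block (edgeR adjusted p = 4.41e-06; 0.00487 without the block), did not pass after thinning or without iECKO library 1 or 2, and both genes were too low in lost cells to be tested when matched on depth to controls.

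A list of 15 genes was drawn from genes already known to be higher in iECKO than in control endothelium of these libraries, so its direction against control is not independent evidence. Of its 15 tested members 2 were higher in kept and 6 in lost cells without the block, and 14 and 13 with it. With RLE factors 3 of the 6 passed (Cx3cl1, Prnd and Slc12a2). In the matched lost against kept comparison 14 of the 15 were tested, 2 passed (Cx3cl1 and S100a6), 12 lay above 0 and the median was 0.27. A matching list of 12 genes that were lower had 9 lower in kept and 7 in lost cells with the block, none without it, and 0 passed between lost and kept (median -0.27).

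**Figure D5:**
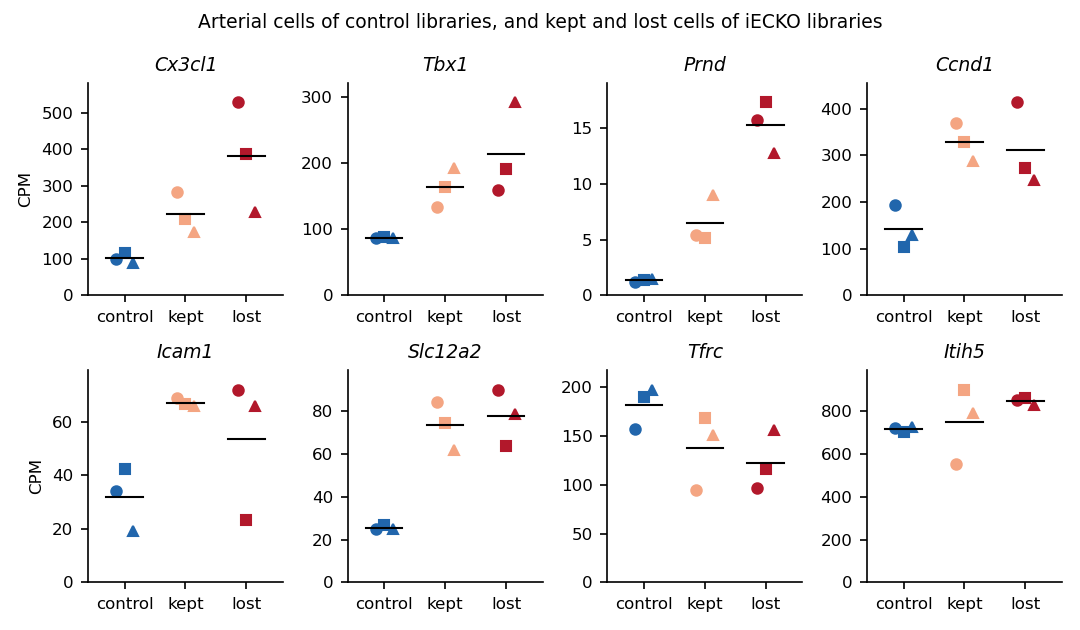
CPM (y axes, from 0) of 8 genes in arterial cells of control libraries and in kept and lost cells of iECKO libraries. Circles, squares and triangles are replicates 1, 2 and 3, and the line is the mean. Cx3cl1, Tbx1 and Prnd step up from control to kept to lost in their means, Slc12a2 and Ccnd1 stand above control in both iECKO classes, and Tfrc and Itih5 overlap between kept and lost.

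Genes near Cldn5 were read because a deletion could alter its neighbourhood. Cldn5 lies on chromosome 16 at 18776847 to 18778262 (plus strand, GRCm38). Within 500 kb of it, Ufd1 (0.00 ± 0.21), Mrpl40 (-0.15 ± 0.40) and Hira (0.38 ± 0.47) did not pass between lost and kept cells (edgeR adjusted p 0.986 to 1.00). Tbx1, a T-box transcription factor gene, lies 186.2 kb below Cldn5 (18580979 to 18590671, minus strand). It was at 156, 194 and 294 CPM in lost and 127, 157 and 150 in matched kept cells (0.60 ± 0.18, edgeR adjusted p = 0.136), higher in 3 of 3 libraries without passing. In the other endothelial cells it passed at 0.80 ± 0.10 (adjusted p = 8.10e-05), with an interaction of -0.18 ± 0.20. Against control it was at 86.1, 87.4 and 86.8, with 133, 163 and 192 in kept and 160, 191 and 292 in lost cells. Tbx1 exceeded control by 1.34 ± 0.22 in lost cells (adjusted p = 0.0159; matched on depth, adjusted p = 0.260, and with the block as well 1.12, adjusted p = 0.0215; the call also ended without iECKO library 2 or 3) and by 0.90 ± 0.12 in kept cells with the block (adjusted p = 1.38e-05).

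Prnd, the gene of doppel, a prion-like protein of developing brain endothelium, was sparse. It was at 1.18, 1.33 and 1.46 CPM in control (5, 5 and 8 UMIs), 5.42, 5.13 and 9.04 in kept and 15.7, 17.3 and 12.8 in lost cells (7, 3 and 6 UMIs). Lost cells exceeded control by 3.44 ± 0.55 (edgeR adjusted p = 0.0127) and kept cells by 2.32 ± 0.40 with the replicate block (adjusted p = 0.000599). In lost cells Prnd was not called after thinning, without any single control library, or without iECKO library 1 or 2. Matched on depth to controls, it was not tested in lost cells. Between matched lost and kept cells it had 16 UMIs in 13 cells and 9 UMIs in 5 cells and was too low to be tested. In the other endothelial cells it was at 28.5, 55.7 and 35.2 in lost and 13.9, 12.7 and 8.81 in kept cells and passed (1.57 ± 0.25, adjusted p = 0.000966).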

How the data were processed

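The deposited files hold whole-number UMI counts per gene and barcode, from Cell Ranger 6.1.1, per the file headers; the submitters' processing notes also name Seurat and mm10. Members and gene lists were chosen with earlier results of these data known. Lost and kept cells were matched 1 to 1 within a library on log10 total UMIs (nearest neighbour, largest distance 0.05), giving sums of 189820 to 459869 UMIs for lost cells, and counts were summed per library and class. The test was the quasi-likelihood F-test of edgeR 4.0.16 (filterByExpr, TMM, robust, two-sided, Benjamini-Hochberg over all genes tested, threshold 0.05) in R 4.3.3. Cldn5 and the 18 gate genes stayed in library sizes and out of the tests. Intervals are exact Clopper-Pearson at 95%.

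Named genes were the 12 largest changes each way past the threshold (mean log2 CPM 5 or more, the same direction in 3 of 3 libraries), called list members (at most 4 per list), the first 4 tested members of each list, all members of 3 lists, and Prnd. Alternatives were DESeq2 1.42.0, RLE factors, no low-count filter, no or other blocks, other cell filters, no matching, thinning to 2000 UMIs, doublet scores (Scrublet in scanpy 1.11.5) and each library left out. Leaving out red-cell barcodes, setting classes at 2000 UMIs and depth-matching to controls were chosen after seeing the data. Same-numbered control and iECKO libraries deviated together from their group means in arterial cells (r = 0.400, 0.363 and 0.370 over 10976 genes). The replicate numbers were therefore taken to pair the libraries. Other pairs were negative, which deviations from a group mean force on balance. The labels do not say that replicate numbers mark pairs. The pairing was read from the same counts that the block was used to test, so calls passing only with the block depend on it. On simulated counts with 200 changed genes, the lost against kept test recovered 69% of 2-fold and 81% of 4-fold changes. It also called 3 unchanged genes, with 5922 genes tested. The Benjamini-Hochberg cut loosens as more genes pass, and far fewer passed in the measured counts than in the simulated ones. These shares may therefore overstate the power of the measured comparison. Coordinates and gene names came from the files and the reference tables on GRCm38.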

Additional observations from a re-analysis of the deposited data

How the results depend on the processing

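Between lost and kept cells (12 genes higher, 4 lower) the counts were 4 and 0 with DESeq2, 0 and 0 with no replicate block, 1 and 0 with 4 arterial genes required, 5 and 1 at 4000 UMIs and 20 and 12 at 5% mitochondrial UMIs. They were 7 and 3 after thinning, 7 and 4 without red-cell barcodes, 8 and 1 for 0 against at least 5 Cldn5 UMIs, 18 and 28 without matching, and 4 to 18 and 1 to 8 with 1 library left out. Of the genes called between lost and kept cells, 3 changed sign: S100a6 to -0.13 without matching, Tmsb10 to 0.088 after thinning and Hbb-bs to -0.14 without red-cell barcodes. With classes set at 2000 UMIs, 13 genes were higher and 5 lower.

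Kept cells against control (2 higher, 0 lower) gave 191 and 100 with the replicate block, 35 and 2 with DESeq2, 132 and 39 with no low-count filter, 8 higher after thinning, 4 higher when depth-matched, 170 and 90 when matched with the block, and 0 to 19 and 0 to 3 with 1 library left out. Lost cells against control (15 and 6) gave 87 and 48 with the block, 34 and 14 with DESeq2, 75 and 48 with no filter, 9 and 1 after thinning, 4 and 1 matched, 36 and 17 matched with the block, and 3 to 50 and 0 to 8 with 1 library left out. The interaction gave 2 genes with no filter and 0 to 3 with 1 library left out. Control low against high Cldn5 gave 63 to 247 higher and 296 to 425 lower. RLE factors moved no count over all genes beyond 1.5 times.

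The share of cells without Cldn5 was 24.5% after thinning, 12.2% at 4000 UMIs and 13.3% with 4 arterial genes required in iECKO libraries, and 0.889% after thinning in control. The cause of these shifts was not tested. Lost cells number 32 to 84 per library, which limits genes of low level most: 6030 genes could be tested between matched classes and 10980 between kept and control.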
